A study of Ovis aries with 6 samples.

Results

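The small leucine-rich proteoglycans (SLRPs) BGN, DCN, LUM, ASPN, OGN, FMOD and PRELP were followed in sheep mitral valve endothelial cells (VECs), which form the surface layer of the valve's leaflets. The 7 genes were found by symbol among the 18865 rows of the count table, and all 7 passed the filter on low counts, which kept 14326 genes. They were chosen as SLRPs typical of valve interstitial cells, the fibroblast-like cells inside the leaflet, and not by how they responded. Earlier results of these data were known at that choice. Cultured VECs had been kept for 24 h either with naive ovine plasma (3 libraries) or with ovine plasma taken after myocardial infarction (post-MI plasma, 3 libraries). All 6 libraries are messenger RNA of treated cells, and no library of cells without plasma was analysed here. The labels name no sheep breed, age, cell line or clone, and leave it unsaid whether replicates differ in culture, plasma donor or cell donor. The p-values therefore rest on a spread between libraries that may be technical. The series concerns endothelial-to-mesenchymal transition after infarction.

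SLRPs are secreted proteins built around a chain of leucine-rich repeats that folds into a curved core. Most bind fibrillar collagen and limit or space the growth of its fibrils, and several also bind growth factors such as TGF-beta. Class I members (biglycan, decorin and asporin) and class II members (lumican, fibromodulin and prolargin) differ in their disulfide pattern and in the sugar chains they carry. Biglycan and decorin carry chondroitin or dermatan sulfate chains, lumican and fibromodulin can carry keratan sulfate, and asporin carries no such chain. Osteoglycin, encoded by OGN, belongs to class III. In heart valves SLRPs are made mainly by interstitial cells, and biglycan is also made by endothelial cells.

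Depth was 17446474 to 20672794 counts per naive library and 14858472 to 18747848 per post-MI library. Levels are given as CPM, the counts scaled to 1000000 per library after TMM normalization, and they are compared between libraries for 1 gene, or for the sum of 1 gene list, at a time, since no transcript lengths were used. Naive replicate 1 stood apart from the other libraries: it was the lowest of the 6 for 29.2% and the highest for 28.8% of the genes tested. Fold changes and list counts that turned or moved by more than 1.5 times without it are given both ways. Endothelial PECAM1 was at 889 to 1407 CPM and CDH5 at 864 to 1384 CPM over the 6 libraries, so both endothelial genes were measured in every library. VWF, which encodes the endothelial von Willebrand factor, gave a log2 fold change of 1.43 ± 0.49 with overlapping groups (SE, edgeR adjusted p = 0.555). The leukocyte gene PTPRC had 4, 6 and 3 counts in the naive and 12, 12 and 23 in the post-MI libraries, without overlap (log2 fold change 2.01 ± 0.54, SE, edgeR adjusted p = 0.443). Of all genes tested, 16.1% did not overlap. The 7 leukocyte markers in the table summed to 10.4 to 18.0 CPM with naive and 10.1 to 13.0 CPM with post-MI plasma, and their part in the SLRP levels was not tested.

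No SLRP passed the test between the plasmas. In edgeR (quasi-likelihood F-test, p-values adjusted over all genes by the Benjamini-Hochberg method), 0 of the 7 were called higher and 0 lower with post-MI plasma, against 0% of the 14326 genes tested in either direction. At an unadjusted p under 0.05 edgeR gave 0 of the 7 and 8.68% of all genes. DESeq2 also called 0 of the 7, where it called 1.01% of genes higher and 0.44% lower. CPM of the groups overlapped for all 7 SLRPs, while 16.1% of genes tested did not overlap, 8.32% with the post-MI group higher and 7.82% with it lower. Log2 fold changes, post-MI minus naive, were positive for BGN, OGN and PRELP and negative for DCN, LUM, ASPN and FMOD. Their median was -0.09, and that of all genes tested was -0.01. Without naive replicate 1 these medians were -0.58 and 0.004.

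**Figure D1:**
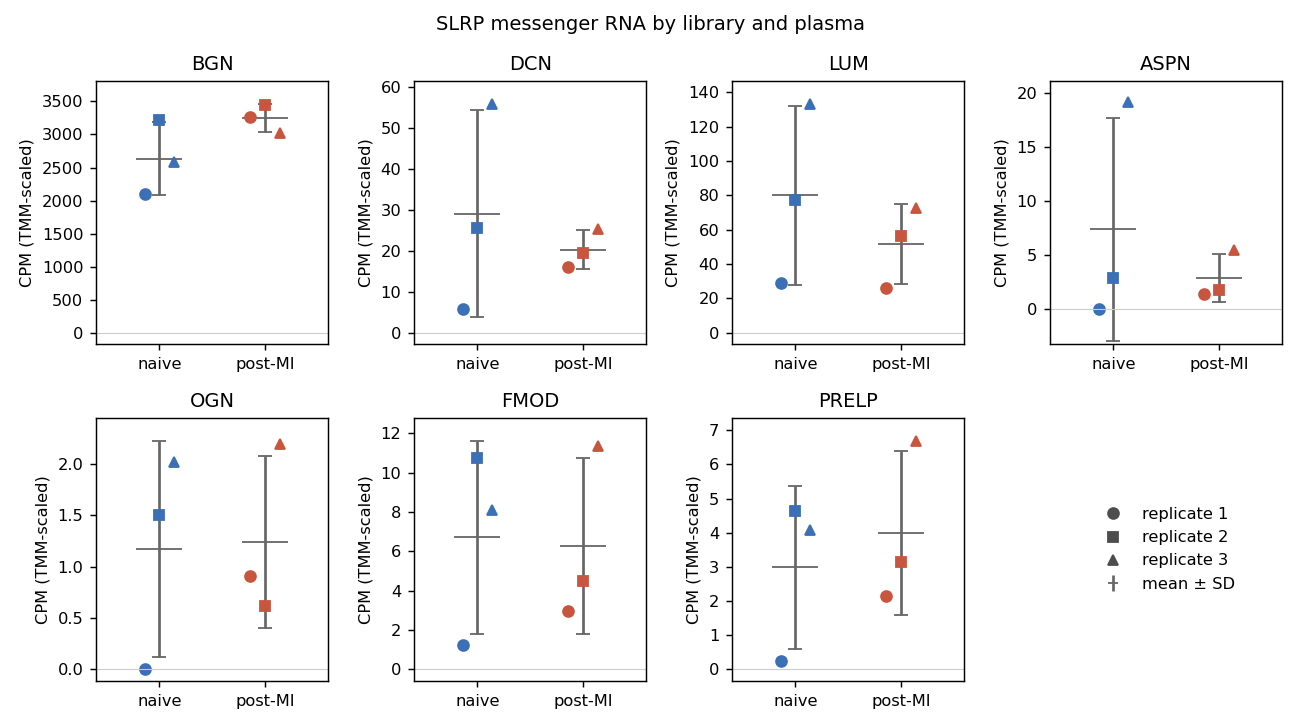
Level of each SLRP in CPM (vertical axes, TMM-scaled, each panel with its own range) with naive or post-MI plasma; points are libraries, marked by replicate number, and bars are mean ± SD of 3 libraries. Naive replicate 1 is the lowest of the 6 libraries for every gene except LUM, and the groups overlap in all 7 panels.

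Of the class I genes, BGN had the narrowest spread. Biglycan, its product, binds collagen and TGF-beta and, once released from the matrix, can act on Toll-like receptors. BGN was at 2104, 3215 and 2586 CPM in naive replicates 1, 2 and 3 and at 3265, 3453 and 3024 CPM in post-MI replicates 1, 2 and 3. The post-MI libraries were higher than naive replicates 1 and 3, while naive replicate 2 lay above post-MI replicate 3. The means were 2635 ± 557 and 3248 ± 215 CPM (SD, n = 3 each), and the log2 fold change was 0.30 ± 0.20 (SE, edgeR adjusted p = 0.646) with a 95% interval of -0.17 to 0.78. Without naive replicate 2 it was 0.47 (edgeR adjusted p = 0.447). With naive replicate 1 left out it was 0.17. BGN did not overlap between the groups when naive replicate 2 or post-MI replicate 3 was left out, settings in which 30% and 32% of all genes did not overlap.

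DCN, which encodes the collagen-binding proteoglycan decorin, ranged widely within the naive group. It was at 5.71, 25.5 and 55.8 CPM in naive replicates 1, 2 and 3 and at 16.0, 19.5 and 25.3 CPM in post-MI replicates 1, 2 and 3. All 3 post-MI values lay inside the naive range, whose highest library was 9.78-fold above the lowest, against 1.58-fold in the post-MI group. The log2 fold change was -0.52 ± 0.68 (SE, edgeR adjusted p = 0.820), with a 95% interval of -2.11 to 1.08. Its direction turned with a single library: it was 0.38 without naive replicate 3 and -0.999 without naive replicate 1.

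ASPN encodes asporin, which binds collagen and TGF-beta. ASPN had 0, 50 and 408 counts in naive replicates 1, 2 and 3, which is 0, 2.90 and 19.2 CPM. The post-MI replicates 1, 2 and 3 had 26, 26 and 94 counts, which is 1.39, 1.78 and 5.43 CPM. The 0 in naive replicate 1 allows up to 3 counts, or 0.150 CPM, and the measured CPM of each of the other 5 libraries was at least 9.28-fold higher. The lowest of these, 1.39 CPM in post-MI replicate 1, had a 95% counting interval of 0.910 to 2.04 CPM. By the same kind of interval the 0 reached up to 0.185 CPM. The 3 post-MI libraries again lay inside the naive range. The log2 fold change was -1.36 ± 1.38 (SE, edgeR adjusted p = 0.762), and its 95% interval of -4.61 to 1.89 was the widest of the 7. The value was 1.01 without naive replicate 3 and -1.95 without naive replicate 1, and limma-voom, a test on log values, gave 1.09.

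The class II gene LUM encodes lumican, which spaces collagen fibrils and is best known from the cornea. It was at 29.1, 77.5 and 133 CPM in naive replicates 1, 2 and 3 and at 26.3, 56.1 and 72.6 CPM in post-MI replicates 1, 2 and 3. Post-MI replicate 1 was the lowest of the 6, just under naive replicate 1, and naive replicates 2 and 3 were the highest. The log2 fold change was -0.63 ± 0.56 (SE, edgeR adjusted p = 0.730), with a 95% interval of -1.96 to 0.70. It was -0.04 without naive replicate 3 and -1.02 without naive replicate 1.

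FMOD and PRELP, the other class II genes, had their highest level in post-MI replicate 3. FMOD, which encodes fibromodulin, a regulator of collagen fibril assembly and crosslinking, was at 1.25, 10.8 and 8.13 CPM in naive replicates 1, 2 and 3 and at 2.95, 4.51 and 11.4 CPM in post-MI replicates 1, 2 and 3. PRELP, which encodes prolargin, a protein that links basement membranes to the connective tissue beneath, was at 0.250, 4.63 and 4.09 CPM and at 2.14, 3.14 and 6.70 CPM in the same order. For both genes naive replicates 2 and 3 lay between the post-MI libraries, and naive replicate 1 lay below them all. The log2 fold changes were -0.09 ± 0.77 for FMOD (SE, edgeR adjusted p = 0.975; 95% interval -1.91 to 1.72) and 0.42 ± 0.86 for PRELP (SE, edgeR adjusted p = 0.894; 95% interval -1.60 to 2.44). Without naive replicate 1 they were -0.58 and -0.12. Leaving out post-MI replicate 3 gave -0.85 for FMOD and -0.18 for PRELP, leaving out naive replicate 2 gave 0.42 and 0.87, and FMOD was also positive, at 0.25, when post-MI replicate 1 was dropped.

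OGN of class III was near the floor of detection. Its product osteoglycin, also called mimecan, takes part in collagen fibril assembly. Counts were 0, 26 and 43 in naive replicates 1, 2 and 3 and 17, 9 and 38 in post-MI replicates 1, 2 and 3. In CPM these were 0, 1.51 and 2.02 with naive and 0.911, 0.615 and 2.19 with post-MI plasma. Naive replicate 1, at 0, again allows up to 0.150 CPM, and the measured CPM of each of the other libraries was at least 4.09-fold higher. The lowest of these, 0.615 CPM in post-MI replicate 2, had a 95% counting interval of 0.281 to 1.17 CPM. By the same kind of interval the 0 reached up to 0.185 CPM. The groups otherwise overlapped, and the log2 fold change was 0.08 ± 1.04 (SE, edgeR adjusted p = 0.985; 95% interval -2.37 to 2.54). It was -0.49 without naive replicate 1 and -0.61 when post-MI replicate 3 was left out.

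**Figure D2:**
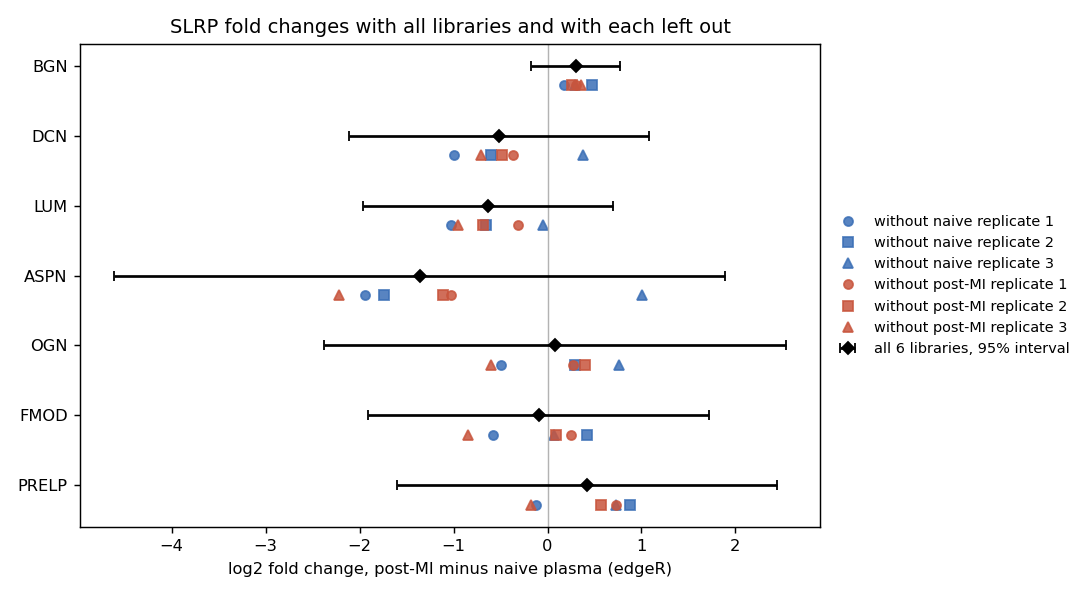
Log2 fold change of each SLRP, post-MI minus naive plasma, by edgeR (horizontal axis): diamonds with bars are all 6 libraries with the 95% interval, and the symbols under each bar are fits with 1 library left out. All 7 intervals include 0; BGN stays between 0.17 and 0.47, while ASPN runs from -2.22 to 1.01.

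The spread of the SLRPs within a group depended on naive replicate 1. On log2 CPM of all 6 libraries the naive SD was the larger one for 7 of the 7 SLRPs and for 66.5% of all genes tested. The median SD of the 7 was 1.66 in the naive and 0.81 in the post-MI group, beside 0.27 and 0.19 for all genes tested. Without naive replicate 1, a setting chosen after seeing the data, the naive SD was the larger one for BGN, DCN and ASPN alone, 3 of 7, beside 46.1% of all genes. The median SD of the 7 was then 0.28 in the naive group, from replicates 2 and 3 alone, and 0.81 in the post-MI group of 3 libraries. The order thus turned, as it did for all genes tested, at 0.17 and 0.19. Counting error is given beside the spread for 4 of the SLRPs, as the root mean square of the relative errors of the 3 naive libraries. For OGN the SD was 89.3% of the naive mean and counting error was 36.3%, most of it from the 0, which was taken as 3 counts. For DCN these were 87.0% and 6.29%, for LUM 65.2% and 3.06%, and for BGN 21.1% and 0.447%. Over naive replicates 2 and 3 alone the SD was 20.7% of the mean for OGN, 52.7% for DCN, 37.5% for LUM and 15.3% for BGN. Counting error was not computed for those libraries alone, so these values cannot be set against the errors above.

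Naive replicate 1 held the lowest value of the 6 libraries for 6 of the 7 SLRPs, all except LUM, where it was the second lowest. The lowest of the other 5 libraries was 1.23-fold above it for BGN, 2.81-fold for DCN, 2.36-fold for FMOD and 8.57-fold for PRELP. At the other end, DCN, LUM and ASPN were highest in naive replicate 3, OGN, FMOD and PRELP in post-MI replicate 3, and BGN in post-MI replicate 2. Within the post-MI group, replicate 3 was the highest for 6 of the 7 SLRPs and replicate 1 the lowest for 5. BGN was the exception to the first of these, with its lowest post-MI value in replicate 3.

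With naive replicate 1 left out, 6 of the 7 log2 fold changes were negative, all except that of BGN, beside 49.4% of all genes. DCN and LUM then no longer overlapped between the groups and were lower with post-MI plasma, 2 of the 7 SLRPs, where 24.8% of all genes did not overlap in either direction. DCN was at 25.5 and 55.8 CPM in the remaining naive libraries, just above the highest post-MI library at 25.3 CPM. In that setting edgeR called 0 of the 7 SLRPs and 0 of all genes. The fold change on the log2 scale was -0.999 ± 0.34 for DCN (SE, edgeR adjusted p = 0.540) and -1.02 ± 0.41 for LUM (SE, edgeR adjusted p = 0.608). DESeq2 without that library, a setting chosen after seeing the data, gave adjusted p-values of 0.221 and 0.341. It also called 0 of the 7, beside 1.21% of all genes called higher and 0.295% lower.

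**Figure D3:**
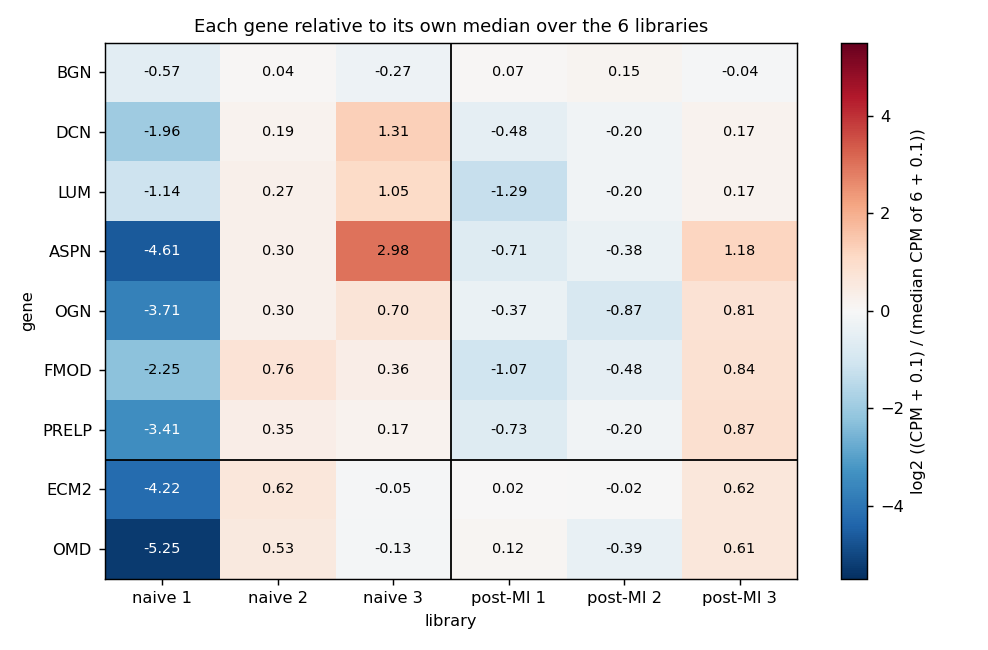
Level of each SLRP and of the neighbouring genes ECM2 and OMD in each library (columns) as the log2 ratio to the gene's own median over the 6 libraries, with 0.1 CPM added to both (color and printed value). Naive replicate 1 is below the median in every row, from -0.57 for BGN to -5.25 for OMD, and ASPN in naive replicate 3 is the highest cell at 2.98.

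The ratio of DCN to BGN counts within a library, which scaling of the library cannot change, was compared on a log2 scale with 1 count added to each. It was -8.51, -6.97 and -5.53 in naive replicates 1, 2 and 3 and -7.67, -7.46 and -6.90 in post-MI replicates 1, 2 and 3. The post-MI libraries all lay inside the naive range. The difference of the means, post-MI minus naive, was -0.33, and -1.09 without naive replicate 1 (for all 6 libraries, two-sided exact permutation p = 0.8, where the smallest possible p for 3 against 3 is 0.1).

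Several SLRP genes are neighbours in the sheep genome. In RefSeq's genes of ARS-UI_Ramb_v3.0, used for gene order alone because the counts were made on another build, LUM lies between KERA and DCN. ECM2, ASPN, OMD and OGN follow each other in that order, and FMOD and PRELP are separated by 1 provisional protein-coding locus, with OPTC next to PRELP. BGN has no SLRP gene beside it.

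In the row of ECM2, ASPN, OMD and OGN, all 4 genes had their lowest level in naive replicate 1. ECM2, which encodes a matrix protein with leucine-rich repeats like those of decorin, had 150 counts there, or 7.51 CPM, and 136 to 217 CPM in the other 5 libraries. OMD, which encodes osteomodulin, a keratan sulfate proteoglycan of bone, had 0 counts there and 41 to 99 in the others. ECM2 and OMD were singled out after their values were seen. Neither passed between the plasmas, with log2 fold changes of 0.47 ± 0.91 for ECM2 (SE, edgeR adjusted p = 0.887) and 0.52 ± 1.05 for OMD (SE, edgeR adjusted p = 0.892). These were -0.08 and -0.05 without naive replicate 1. ASPN stood apart from its neighbours in naive replicate 3, where it was at 19.2 CPM and at 1.39 to 5.43 CPM in the 4 remaining libraries above 0, while OMD was at 3.38 CPM there and at 2.80 to 5.72 CPM in those 4.

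Over the 6 libraries, the correlation between SLRPs other than BGN was positive for the 3 pairs of neighbours and for the 12 other pairs. Neighbours here include ASPN with OGN, which have OMD between them, and FMOD with PRELP, which have a provisional locus between them. On log2 CPM, Pearson's r was 0.87 for DCN with LUM (Spearman's rho 0.94), 0.94 for ASPN with OGN (rho 0.89) and 0.94 for FMOD with PRELP (rho 1). Two-sided exact permutation p-values of r, adjusted over all 21 pairs, were 0.0547, 0.0486 and 0.0292 in that order, and those of rho were 0.1, 0.1 and 0.0583. Without the 2 libraries farthest from the median, naive replicate 1 among them each time, r was 0.95, 0.89 and 0.88. The 12 pairs of non-neighbours without BGN had r of 0.70 to 0.99, with 4 of 12 at an adjusted exact p under 0.05, and 0.11 to 0.99 without the 2 farthest libraries. The share of all gene pairs with such r was not measured. Whether these correlations are particular to the SLRPs was therefore not tested.

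BGN was less closely correlated with the other SLRPs. Its r with each of them was 0.11 to 0.72 and its rho -0.26 to 0.09, with 0 of 6 pairs at an adjusted exact permutation p under 0.05. With the 2 libraries farthest from the BGN median left out, r was -0.97 to -0.33. The members share the libraries, and the distance of naive replicate 1 from the rest enters each of these values.

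By likeness over the 6 libraries among 9004 genes with a mean log2 CPM of at least 3, the 3 genes nearest to each SLRP all had a Pearson's r of at least 0.99, which with 6 points and so many candidates is a description alone. They were METRNL, ZNF575 and C8orf33 for BGN, IFT172, MMUT and KAT2B for DCN, and ZNF639, PNPLA6 and PYGB for LUM. For ASPN they included STS and CCN3, and for OGN they were C25H1orf198, RHOBTB3 and C1orf198. Whether the separate rows C25H1orf198 and C1orf198 name the same gene was not checked. FMOD was nearest to ARHGEF10, ATP6V0E2 and PHLPP1, and PRELP to MARK4, CNN2 and JADE1. No gene was shared between these lists. BGN, DCN and LUM, the SLRPs above that minimum level, were not in them, and the other 4 were below it and could not be.

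Of the 10 other genes of the SLRP family, 5 passed the filter and 0 passed edgeR's test. Of the 5 fold changes 4 were positive, and 2 without naive replicate 1. TSKU, which encodes tsukushi, a secreted modulator of BMP and other signals, was at 6.76, 12.9 and 13.0 CPM in naive replicates 1, 2 and 3 and at 15.9, 15.0 and 18.2 CPM in post-MI replicates 1, 2 and 3. The groups did not overlap, and the log2 fold change was 0.59 ± 0.27 (SE, edgeR adjusted p = 0.566; 0.35 without naive replicate 1). PODNL1, related to podocan, had 12, 14 and 12 counts with naive and 7 in each library with post-MI plasma, and its groups did not overlap in the other direction (log2 fold change -0.64 ± 0.41, SE, edgeR adjusted p = 0.635). Of the 5 tested, 1 was higher without overlap and 1 lower, beside 8.32% and 7.82% of all genes. CHAD, which encodes the cartilage protein chondroadherin, gave 0.25 ± 0.49 (SE, edgeR adjusted p = 0.884; 0.15 without naive replicate 1). EPYC and OPTC were at 0 in all 6 libraries, KERA and NYX had at most 3 counts, and PODN at most 25.

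Enzymes that build the sugar chains of SLRPs were measured in all libraries. Of 23 genes for chondroitin and dermatan sulfate chains, 22 were tested, of which edgeR called 0, and 13 fold changes were above and 9 below 0 on the log2 scale. Their median was 0.05. Without naive replicate 1 the positive ones were 8 of 22 and the median was -0.09. CHSY1 and CHSY3, which lengthen the chain, and the sulfotransferase CHST7 were higher with post-MI plasma without overlap, and the uronyl sulfotransferase UST was lower without overlap, 4 of 22 genes beside 16.1% of all genes. CHST7 gave 1.17 ± 0.51 (SE, edgeR adjusted p = 0.566). CHSY3 was at 8.83 to 13.9 CPM with naive and 14.0 to 20.2 CPM with post-MI plasma (log2 fold change 0.73 ± 0.24, SE, edgeR adjusted p = 0.539), and UST gave -0.63 ± 0.25 (SE, edgeR adjusted p = 0.566). Without naive replicate 1 CHSY3 was called by DESeq2 (adjusted p = 0.0230), a setting in which 1.21% of genes were called higher and 0.295% lower, and it was not called by edgeR (adjusted p = 0.293) or by DESeq2 on all 6 libraries (adjusted p = 0.250). Of 7 tested genes for keratan sulfate chains 3 were positive and 4 negative, with CHST2, a sulfotransferase, at 0.41 ± 0.16 and FUT8, a fucosyltransferase, at -0.30 ± 0.14 (SE, edgeR adjusted p = 0.566 and 0.570), and 0 passed. FUT8 was -0.17 without naive replicate 1, and the galactosyltransferase B4GALT4 gave -0.25 ± 0.16 (SE, edgeR adjusted p = 0.629).

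The collagens that SLRPs bind had the same low library. Of 10 tested collagen genes 9 were lowest in naive replicate 1, 6 fold changes were positive and 4 negative, and edgeR called 0 of them, all with overlapping groups. Without naive replicate 1 the positive ones were 3 of 10, and the median log2 fold change went from 0.07 to -0.19. COL5A1, of the minor fibrillar collagen that starts fibrils, gave 0.55 ± 0.36 and COL5A2 -0.23 ± 0.24 (SE, edgeR adjusted p = 0.641 and 0.769), and these were 0.24 and -0.39 without naive replicate 1. COL14A1, of a collagen on the surface of fibrils, gave 0.71 ± 0.59, and 0.41 without that library (SE, edgeR adjusted p = 0.712). Of 18 tested ligands and receptors of SLRPs 7 were positive and 11 negative, with 0 called, and without naive replicate 1 the positive ones were 10. The lipoprotein receptor gene VLDLR had the smallest p of them, with 163, 39.2 and 10.8 CPM in naive replicates 1, 2 and 3 and 9.63 to 17.7 CPM in the post-MI libraries. Its groups overlapped, and its log2 fold change was -2.35 ± 0.88 (SE, edgeR adjusted p = 0.561). Leaving out naive replicate 1, where it was highest, gave -0.83. TGFB2, a ligand that class I SLRPs can bind, was at 14.7, 40.5 and 33.0 CPM in naive replicates 1, 2 and 3 and at 57.3, 53.3 and 52.5 CPM in post-MI replicates 1, 2 and 3, without overlap (log2 fold change 0.89 ± 0.34, SE, edgeR adjusted p = 0.566; 0.58 without naive replicate 1). It was the 1 gene of these 18 without overlap, beside 16.1% of all genes. TGFB3, of the same ligand family, gave 0.81 ± 0.45 with overlapping groups (SE, edgeR adjusted p = 0.604; 0.47 without naive replicate 1). Of 12 tested proteases and cofactors that process SLRPs or their collagens 3 were positive and 9 negative, with 0 called. The matrix protease ADAMTS1 was the 1 gene of them without overlap, beside 16.1% of all genes, at -0.94 ± 0.27 (SE, edgeR adjusted p = 0.491). The aggrecanase gene ADAMTS5 gave -0.47 ± 0.26 and MMP14, of a membrane-bound collagenase, -0.41 ± 0.27 (SE, edgeR adjusted p = 0.609 and 0.640), and MMP14 was -0.085 without naive replicate 1.

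Markers of fibroblasts and valve interstitial cells are set beside the SLRPs. Fewer cells of a type and less RNA per cell cannot be told apart in such bulk samples. All 14 markers are in the table and 13 were tested, of which edgeR called 0, with 5 fold changes positive and 8 negative. Without naive replicate 3 the positive ones were 9. MEOX1, a mesenchymal homeobox factor, was the 1 marker without overlap, beside 16.1% of all genes, at 1.17 ± 0.38 (SE, edgeR adjusted p = 0.545). PDGFRA, a growth factor receptor of fibroblasts, gave -0.43 ± 0.31 (SE, edgeR adjusted p = 0.671). PDGFRA was 0.039 without naive replicate 1. PI16, a marker of adventitial fibroblasts, gave -1.25 ± 0.94 (SE, edgeR adjusted p = 0.679), and -0.39 without that library. In naive replicate 1, 8 of the 13 were at their lowest and 3 at their highest, PDGFRA and PI16 among the latter. The median of the 13 relative to their own medians was -0.77 there on the log2 scale, beside -2.25 for the SLRPs. In naive replicate 3 these medians were 0.34 and 0.70, and in post-MI replicate 3 0.23 and 0.81.

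The 14 markers summed to 6044 to 14599 CPM per naive library and to 10529 to 12712 CPM per post-MI library. COL1A1 and COL3A1, which are in the collagen list too, carried most of that sum, at 3172 and 2483 CPM in naive replicate 1, the lowest library, and at 9781 and 4252 CPM in naive replicate 2, the highest. None was at 0 in all libraries, and SFRP2 had at most 1 count. DPT, which encodes the decorin-binding matrix protein dermatopontin and was singled out after its values were seen, was at 22.6, 33.7 and 64.4 CPM in naive replicates 1, 2 and 3 and at 18.1, 31.8 and 38.3 CPM in post-MI replicates 1, 2 and 3. Like LUM, DPT was lowest in post-MI replicate 1, next lowest in naive replicate 1 and highest in naive replicate 3. No other tested marker had this order. Of the 13, 8 were lowest in naive replicate 1, while PDGFRA, PI16 and DDR2 were highest there. DDR2 was lowest in naive replicate 3. The part of such cells in the SLRP levels was not tested.

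The 6 tested smooth muscle markers had a median of -1.56 in naive replicate 1 on the same scale. In naive replicate 3 it was -0.999, where that of the SLRPs was 0.70. Of the 6, 5 had a positive log2 fold change, with a median of 0.84, and edgeR called 0. Without naive replicate 1 the positive ones were 6 and the median was 0.52. TAGLN, which encodes the actin-binding protein transgelin, was higher with post-MI plasma without overlap (log2 fold change 0.76 ± 0.34, SE, edgeR adjusted p = 0.566; 0.48 without naive replicate 1). It was the 1 of the 6 without overlap, beside 16.1% of all genes. The part of such cells in the SLRP levels was not tested either. The 12 endothelial markers had a median of -0.24 in naive replicate 1 and -0.23 in naive replicate 2, with 4 and 6 of them at their lowest. Endothelial markers summed to 3111 to 3443 CPM per naive library and to 3217 to 4573 CPM per post-MI library. Endothelial markers were positive in 10 of 12 cases, with 0 passing in edgeR. DESeq2 called ROBO4 alone of the 12 (adjusted p = 0.0463), beside 1.01% of all genes called higher. CLDN5 and ROBO4 were higher with post-MI plasma without overlap, 2 of the 12, beside 8.32% of all genes. Without naive replicate 1 DESeq2 no longer called ROBO4 (adjusted p = 0.0712).

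**Figure D4:**
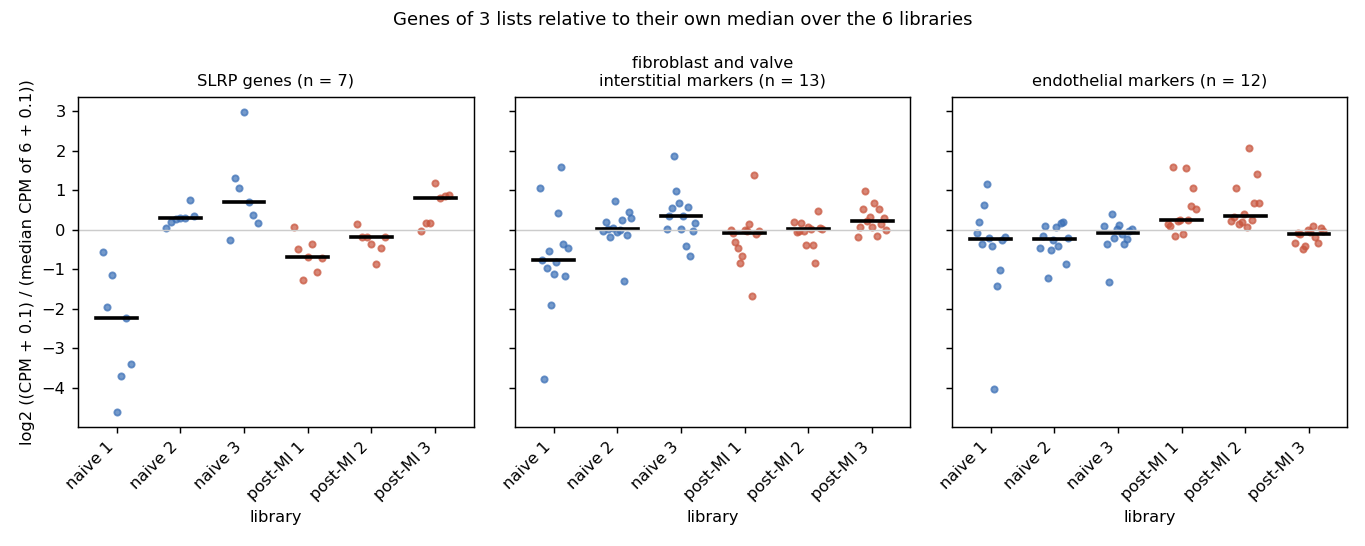
Genes of 3 lists in each library as the log2 ratio to their own median over the 6 libraries, with 0.1 CPM added to both (vertical axis); points are genes, and black bars are the median of the list in that library. In naive replicate 1 the median is -2.25 for the SLRPs, -0.77 for the fibroblast and valve interstitial markers and -0.24 for the endothelial markers. That of the endothelial markers is -0.23 in naive replicate 2.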

How the data were processed

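Messenger RNA of sheep VECs was sequenced from 3 libraries with naive and 3 with post-MI plasma, with a stranded kit and paired reads of 150 bp per the labels' protocols. The authors deposited raw counts per gene symbol. The submitters' processing notes name the build Oar_v3.1, the tools STAR 2.5.2b and featureCounts 2.0.0, and DESeq2 1.26.0. For annotation and strand setting, nothing is given in the sources used here. The files per sample were not used. Reads shared between overlapping genes or antisense partners could not be told apart.

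Counts were fitted in R 4.3.3 with edgeR 4.0.16 (filterByExpr with a minimum count of 10 and a minimum total of 15, TMM, quasi-likelihood test) and adjusted p under 0.05. SE was taken from the size of the log2 fold change divided by the root of F. CPM divides counts by the TMM-scaled library total, and a count of 0 was read against 3 counts, or 0.141 to 0.205 CPM. Floors and intervals of counts cover counting error alone, since no molecular identifiers are named for the reads. Log2 CPM used a prior count of 2. The tests were checked on simulated data.

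The members, gene lists, tests and alternatives were chosen with earlier results of these data known. Named genes were the 7 members, up to 3 genes with the smallest edgeR p in each list, the 3 genes most like each member (a mean log2 CPM of at least 3) and PECAM1, CDH5, VWF and PTPRC; 1 gene most like ASPN is not reported here. Leukocyte, red cell, smooth muscle and endothelial genes are given mostly as list summaries. Red cell and platelet markers had 1 tested gene of 8, with a negative log2 fold change. All 17 SLRP family symbols were in the RefSeq table. Alternatives were DESeq2 1.42.0, voom of limma 3.58.1, DESeq2 size factors, other count filters, a replicate block and each library left out.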

Additional observations from a re-analysis of the deposited data

How the results depend on the processing

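The counts of SLRPs called higher and lower were 0 and 0 with DESeq2, limma-voom, DESeq2 size factors in edgeR, no filter on counts, a minimum of 1 CPM in 3 libraries, the replicate block, each library left out, and DESeq2 without naive replicate 1. Over all genes DESeq2 called 152 higher and 66 lower where edgeR called 0 and 0, and 193 and 47 without naive replicate 1. The settings other than DESeq2 also called 0 of all genes in either direction, so their 0 is not particular to the SLRPs. BGN and LUM kept their sign in all 13 alternatives. limma-voom gave 1.09 for ASPN and 0.17 for FMOD, and the replicate block gave 0.12 for FMOD and called 0 genes. Whether the replicate numbers pair the libraries is not said in the labels. Same-numbered libraries deviated from their group means with r of 0.15, -0.11 and 0.09 across genes, and the other pairs with -0.31 to 0.24. These values cannot decide the question, since no pair known to share a donor or culture is there for comparison. Without 1 library, log2 fold changes ran from -0.999 to 0.38 for DCN, -2.22 to 1.01 for ASPN, -0.61 to 0.76 for OGN, -0.85 to 0.42 for FMOD and -0.18 to 0.87 for PRELP.

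For genes outside the 7 the sign turned without 1 library for CHAD (-0.016 to 0.59), COL5A2 (-0.39 to 0.047), PDGFRA (-0.62 to 0.039), ECM2 (-0.076 to 1.21) and OMD (-0.052 to 1.30). With DESeq2 without naive replicate 1, OGN gave -0.50, PRELP -0.12, PDGFRA 0.036, ECM2 -0.078 and OMD -0.056. The DCN to BGN ratio was lowest, -1.09, without naive replicate 1 and highest, 0.40, without naive replicate 3. SLRPs without overlap numbered 0 to 2, by a setting chosen after seeing the data. The causes of these turns were not tested, and fewer libraries also change which genes pass the filter. Of 132 counts of positive fold changes per list, 10 moved by more than 1.5 times, 4 of them without naive replicate 1. ASPN, OGN and PRELP had 0 to 5 counts in naive replicate 1, which limits their fold changes.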

Other observations

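The ratio of counts between SLRP genes that lie side by side or near each other in the genome differed between libraries. LUM counts over DCN counts were 5.11, 3.03 and 2.39 in naive replicates 1, 2 and 3 and 1.64, 2.87 and 2.87 in post-MI replicates 1, 2 and 3. FMOD over PRELP counts were 5 in naive replicate 1, from 25 and 5 counts, 2.33 and 1.99 in the other naive libraries and 1.38, 1.43 and 1.70 in post-MI replicates 1, 2 and 3. All 3 naive ratios of FMOD to PRELP were above the post-MI ratios. ASPN over OGN counts were 1.92 and 9.49 in naive replicates 2 and 3 and 1.53, 2.89 and 2.47 in post-MI replicates 1, 2 and 3, and both genes were at 0 in naive replicate 1. These ratios were chosen after the values were seen and were not tested.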
